A study of Mus musculus with 33 samples.

Results

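Microglia are the resident macrophages of the brain, and 39 genes that mark them or their plaque-associated state were followed here across the hippocampus of wild-type mice, Tg2576 mice and Tg2576 mice given TO901317. The genes were taken by name: every probe set annotated to a single one of them was used, and the probe set of highest mean over all arrays stood for the gene. They had 58 probe sets, 28 genes with 1 and 11 with several. Of the 39 genes, 36 had a probe set above the limit on low signals and were tested among 12760 genes, and Itgax, Clec7a and Cst7 were below it.

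Microglia depend on the receptor Csf1r and on the transcription factors encoded by Spi1 and Irf8. In healthy tissue they carry purine and chemokine receptors such as P2ry12 and Cx3cr1, which sense injury and neuronal signals. Around amyloid plaques, signalling through Trem2 and its adaptor Tyrobp accompanies a state with less of these receptors and more lysosomal, lipid and phagocytic genes, among them Cst7, Itgax, Clec7a and Axl. Complement C1q, which tags synapses and debris, comes mostly from microglia in the brain. TO901317 activates the liver X receptors (LXR), which turn on cholesterol export and dampen inflammatory genes in macrophages.

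The animals were 33 males, 11 in each of 3 groups, all aged 20 weeks and of a mixed SJL × C57BL/6J background. Tg2576 mice were heterozygous for human APP with the Swedish mutation under the prion promoter, and amyloid plaques are known to form late in the life of this line. Plaque load was not analysed here. Wild-type littermates and 1 Tg2576 group received vehicle by gavage, and the other Tg2576 group received TO901317 at 50 mg per kg per day. The series' design gives 7 days of dosing and the treatment protocol 5 days. Every animal was perfused with saline before the right hippocampus was taken, and each gave 1 array. Values are MAS5 signals from a whole piece of tissue, so fewer microglia and less RNA per microglial cell cannot be told apart. Labels call the samples biological replicates.

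All arrays had a trimmed mean signal of 99.97, medians ran from 19.4 to 28.9, and pairs of arrays correlated at 0.961 to 0.988. The drug's known targets moved in treated against vehicle Tg2576: Abca1, Abcg1, Srebf1 and Scd1 all rose, 4 of 4, by 0.42 to 0.66 on the log2 scale. The log2 ratio of 3' to 5' Gapdh signal, a measure of RNA quality, reached 0.11 in vehicle Tg2576 (replicates 3 and 4 stood apart) and at most -0.09 in wild type and -0.11 in treated animals. Of 8 lymphocyte and 4 red cell markers, 6 and 2 had a probe set naming that gene alone. All of these were below the limit on low signals. Of 11 monocyte and neutrophil markers, 9 had such a probe set. Only Ngp passed the limit, and the others of these 9, Ccr2 and S100a8 among them, averaged at most 9.454. The remaining markers of these lists, Hbb-b1 among them, were not examined.

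Of the defining genes of the cell type, Csf1r and Tmem119 were well above that limit, a signal of 13.3, in every animal. Other members were nearer to it. Single animals fell below it for Spi1 (10.02 at the lowest), P2ry6 (9.565) and Trem2 (4.04), for example. Csf1r, the receptor for the survival factors Csf1 and Il34, had a signal of 828.6 at the lowest, 989.6 at the median and 1222 at the highest in wild type (n = 11). It ran from 937.6 through 996.3 to 1156 in vehicle Tg2576 and from 858.5 through 1014 to 1127 in treated Tg2576. The 3 groups overlapped almost fully. Tmem119, a surface protein of microglia but not of other brain macrophages, had a median of 124.2 in wild type (range 104.1 to 140.4), 119.2 in vehicle Tg2576 (111.3 to 156.1) and 116.5 in treated animals (102.3 to 141.7). Its range too was shared by all groups.

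Of the 36 genes tested, 1 rose in vehicle Tg2576 against wild type. Lyz2, which encodes the lysozyme of macrophages and other myeloid cells, had a signal of 24.42 at the lowest, 34.27 at the median and 58.06 at the highest in wild type. In vehicle Tg2576 it ran from 29.67 through 70.46 to 88.3, and in treated Tg2576 from 28.83 through 44.8 to 76.51. Of the 11 vehicle Tg2576 animals, 10 lay above the wild-type median and 6 above the highest wild-type animal, while the lowest lay inside the wild-type range. Mean signals of 35.95 ± 10.12 in wild type and 65.03 ± 20.25 with the transgene (SD, n = 11 each) gave Lyz2 a rise of 0.62 on the log2(signal + 16) scale (SE 0.13, 95% interval 0.35 to 0.89, limma adjusted p = 0.0211). Lyz2 was the 1 of 36 members called at an adjusted p under 0.05, where 0.235% of all genes tested were called. Treated animals lay between the other groups at 49.73 ± 14.05 (SD, n = 11), and neither difference passed: treated minus vehicle Tg2576 was -0.29 (adjusted p = 0.383) and treated minus wild type 0.33 (adjusted p = 0.376).

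The call for Lyz2 was close to its threshold. It was lost without vehicle Tg2576 replicate 6, 9 or 10 (adjusted p = 0.0544, 0.0507 and 0.0505) and held in the other 30 fits that left out 1 array each. It was also lost without vehicle Tg2576 replicates 3 and 4, whose Gapdh ratios stood apart (0.58, adjusted p = 0.0732), with choroid plexus and meningeal scores as covariates (0.41, adjusted p = 0.0542) and in an exact rank-sum test (adjusted p = 0.16). The difference stayed above 0 in each of these fits and ran from 0.58 to 0.70 with 1 array left out. Lyz1, a near-identical copy of Lyz2, may share its labelled RNA on the array: its brighter probe set read 47.56 ± 38.5 in wild type, 84.91 ± 35.17 in vehicle Tg2576 and 55.88 ± 18.59 in treated animals (SD, n = 11 each). That difference of 0.74 between vehicle Tg2576 and wild type did not pass (SE 0.19, limma adjusted p = 0.0846). Over the 33 animals, with group means removed, the 2 brighter Lyz1 probe sets correlated with Lyz2 at 0.62 and 0.67.

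**Figure D1:**
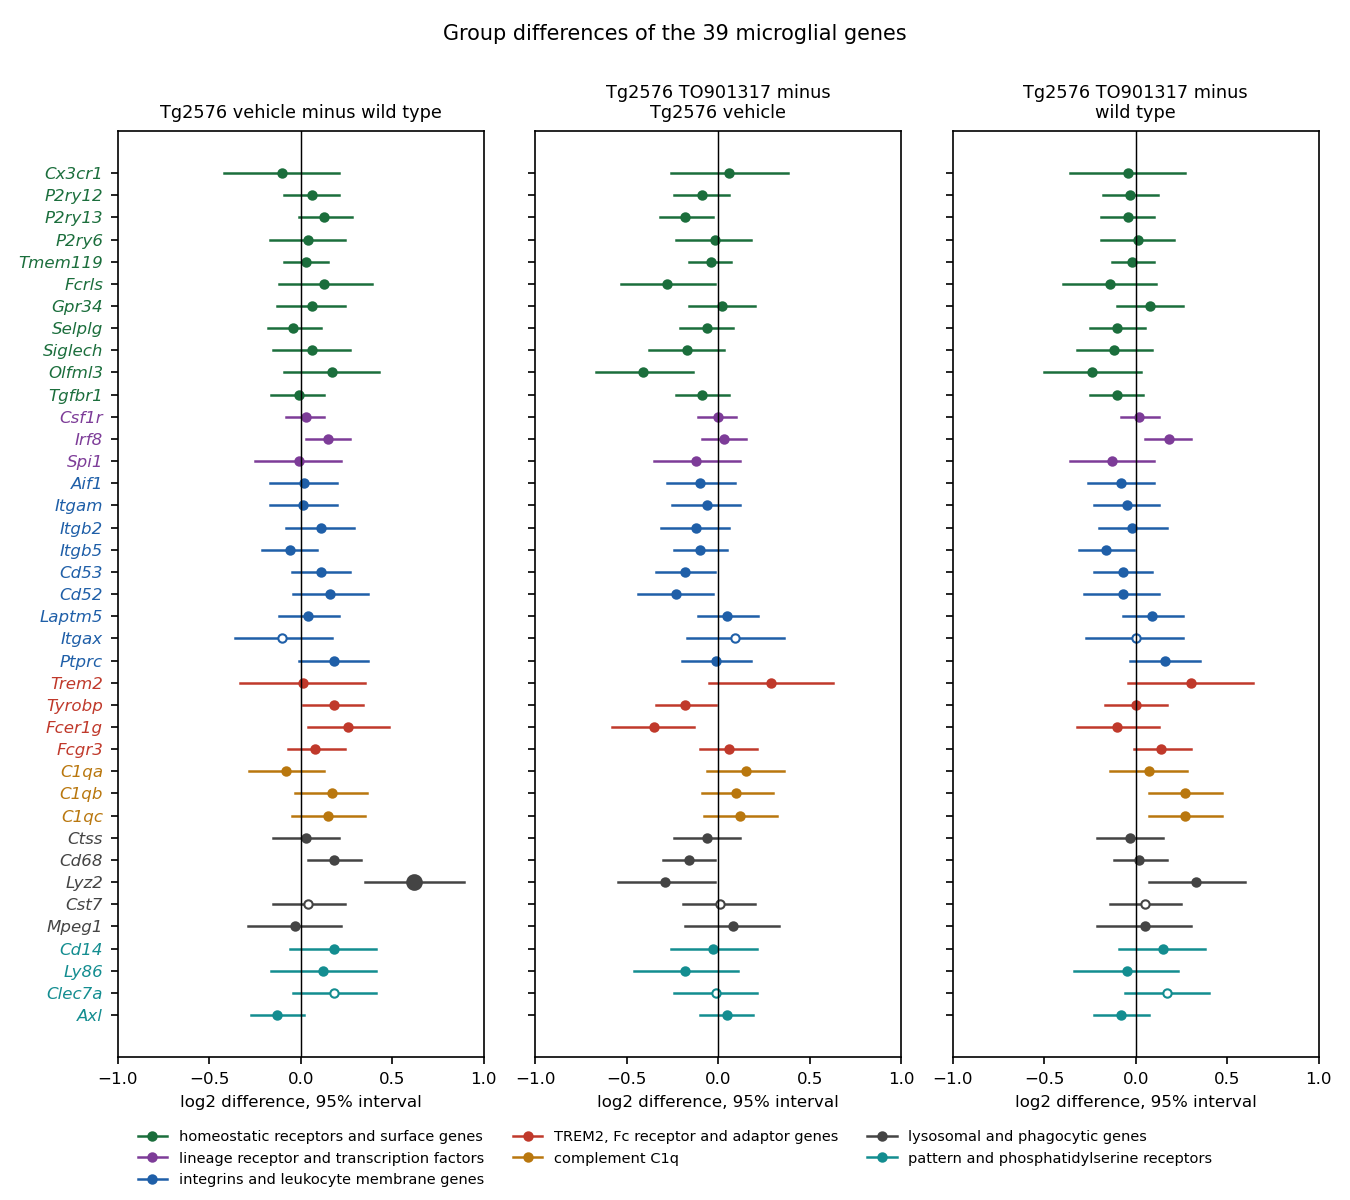
Log2 differences (points) with 95% intervals (lines) of the 39 microglial genes in the 3 comparisons, coloured by role; the x axis is the log2 difference of log2(signal + 16), n = 11 per group. Open points are the 3 genes below the limit on low signals, and the large point is Lyz2 at 0.62, the 1 member called in any panel.

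The other lysosomal and phagocytic genes did not pass. Cd68, a lysosomal membrane protein of phagocytes, had a signal of 46.04 at the lowest, 53.91 at the median and 67.67 at the highest in wild type. It ran from 41.39 through 65.66 to 79.82 in vehicle Tg2576 and from 50.15 through 54.63 to 62.81 in treated animals. In vehicle Tg2576, 5 of 11 animals exceeded the wild-type range and 1 lay below it. The log2 difference was 0.18 (95% interval 0.04 to 0.33, adjusted p = 0.273), and treated minus vehicle Tg2576 was -0.16 (adjusted p = 0.364). Ctss, the lysosomal protease cathepsin S, differed by 0.03 and -0.06 in the same comparisons, and Mpeg1, a pore-forming protein of phagosomes, by -0.03 and 0.08.

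Trem2, Tyrobp and Fc receptor genes lay higher in vehicle Tg2576 than in wild type in 4 of 4 cases, by 0.01 (Trem2) to 0.26. None passed, and 53% of all genes tested were above 0 in that comparison. Fcer1g encodes the gamma chain through which Fc receptors signal. Its signal ran from 51.35 through 81.08 to 98.7 in wild type, from 74.55 through 91.31 to 129.4 in vehicle Tg2576 and from 46.86 through 69.43 to 97.5 in treated animals (lowest, median, highest). Thus 5 of 11 vehicle Tg2576 animals exceeded every wild-type animal, and 6 of 11 treated animals fell below every vehicle Tg2576 animal. Its log2 difference was 0.26 in vehicle Tg2576 against wild type (SE 0.11, adjusted p = 0.326) and -0.35 in treated against vehicle Tg2576 (SE 0.11, 95% interval -0.58 to -0.13). The adjusted p of the latter, 0.165, was the smallest of any member in that comparison.

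Tyrobp, the adaptor of Trem2, had means of 144.7 ± 15.89 in wild type, 166.5 ± 25.74 in vehicle Tg2576 and 146 ± 27.67 in treated animals (SD, n = 11 each). It differed by 0.18 and then by -0.18 (adjusted p = 0.385 and 0.391). Trem2 itself, the lipid-sensing receptor, was dim and had a spread of 0.42 between animals of a group, the largest of the 36 members on the log2(signal + 16) scale. Signals of Trem2 ran from 4.43 through 18.29 to 33.24 in wild type, from 4.04 through 22.28 to 40.14 in vehicle Tg2576 and from 10.82 through 28.3 to 52.89 in treated animals. Its difference of 0.01 between vehicle Tg2576 and wild type has a 95% interval from -0.33 to 0.35, and that of 0.29 between treated and vehicle Tg2576 from -0.05 to 0.63. The other probe set of Trem2, below the limit on low signals, gave -0.04 between vehicle Tg2576 and wild type and -0.14 between treated and vehicle Tg2576. Fcgr3, a low-affinity IgG receptor, had means of 71.84 ± 12.36, 76.58 ± 8.049 and 80.81 ± 12.67 in the same order of groups (SD, n = 11 each), with no passing difference.

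**Figure D2:**
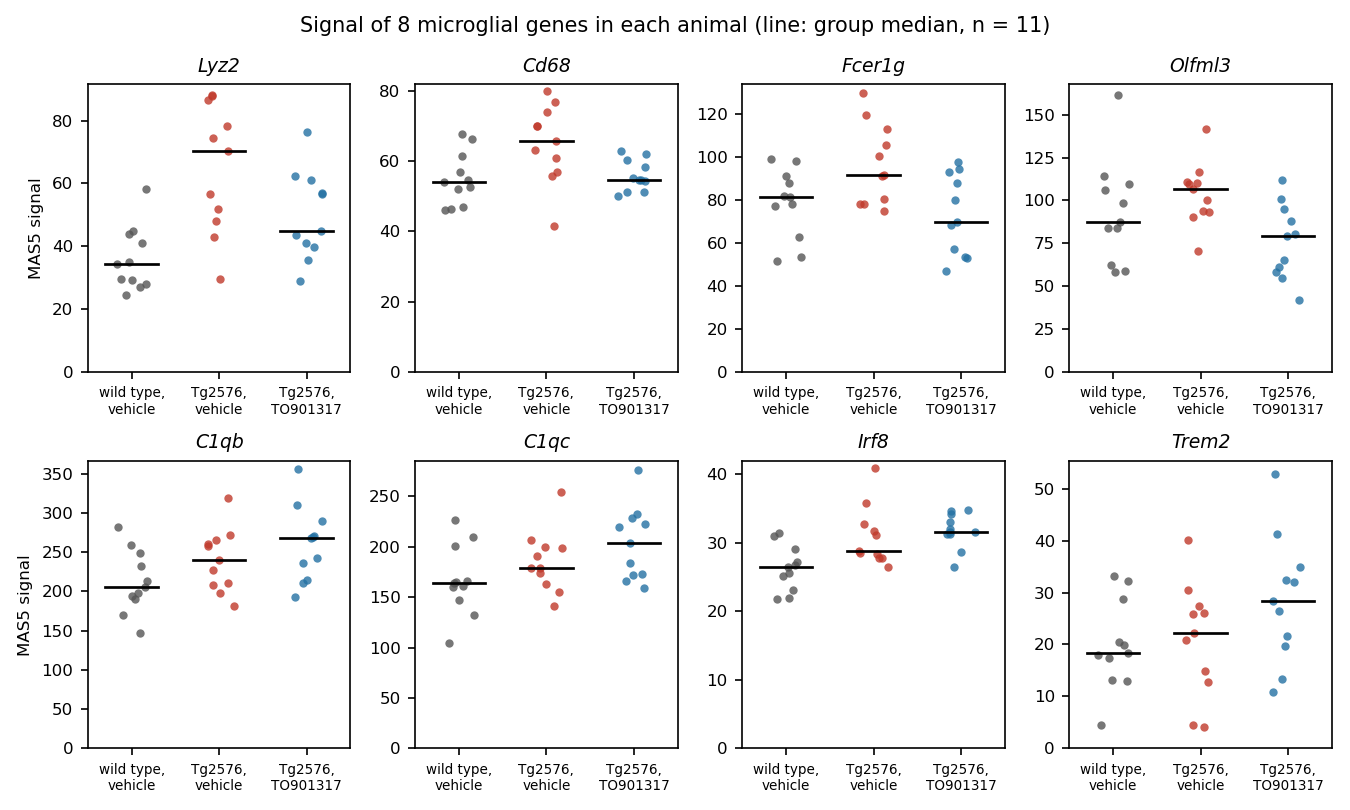
MAS5 signal (y axis, linear, from 0) of 8 microglial genes in each animal of the 3 groups; a point is 1 animal and the line is the group median (n = 11). Lyz2 has medians of 34.27, 70.46 and 44.8 from left to right, and the groups overlap in every panel.

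Complement C1q has 3 chains, encoded by neighbouring genes. C1qb had a signal of 147.3 at the lowest, 205.6 at the median and 282 at the highest in wild type. It ran from 181.9 through 240.1 to 318.9 in vehicle Tg2576 and from 192.5 through 268.3 to 356 in treated animals. Of the treated animals, 10 of 11 lay above the wild-type median and 3 above the highest wild-type animal. The log2 difference of treated against wild type was 0.27 (SE 0.10, 95% interval 0.07 to 0.47, adjusted p = 0.296), and the other 2 probe sets of C1qb gave 0.20 and 0.33. C1qc ran from 104.6 through 163.7 to 226 in wild type, from 140.8 through 179.3 to 254.1 in vehicle Tg2576 and from 159.1 through 203.9 to 276.4 in treated animals, and also differed by 0.27 (adjusted p = 0.302). C1qa had means of 330.3 ± 51.44, 314.2 ± 56.98 and 351.4 ± 77.11 in that order (SD, n = 11 each), a difference of 0.07 between treated and wild type. The C1q levels thus overlapped in all groups and none passed.

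C1qb and C1qc varied together from animal to animal more closely than any other pair of members, as given further on. Their upstream sequences are shown with that of Lyz2, the called gene, as the 250 bases before the annotated start, from RefSeq on GRCm38.p6 and written 5′ to 3′ along the gene. Capitals mark GAGGAA, read on either strand, the core of sites bound by PU.1, the product of Spi1. C1qb lies at chr4:136886201-136886450, C1qc at chr4:136892915-136893164 and Lyz2 at chr10:117282273-117282522, all on the minus strand.
C1qb: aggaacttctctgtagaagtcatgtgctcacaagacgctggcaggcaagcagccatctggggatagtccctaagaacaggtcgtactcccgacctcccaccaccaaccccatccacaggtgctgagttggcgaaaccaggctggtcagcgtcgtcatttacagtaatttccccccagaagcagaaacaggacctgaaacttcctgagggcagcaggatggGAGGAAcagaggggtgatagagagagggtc
C1qc: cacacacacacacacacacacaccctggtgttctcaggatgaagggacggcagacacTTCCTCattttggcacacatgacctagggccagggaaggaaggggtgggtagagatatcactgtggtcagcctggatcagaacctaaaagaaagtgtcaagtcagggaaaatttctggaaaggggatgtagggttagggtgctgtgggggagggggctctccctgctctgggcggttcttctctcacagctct
Lyz2: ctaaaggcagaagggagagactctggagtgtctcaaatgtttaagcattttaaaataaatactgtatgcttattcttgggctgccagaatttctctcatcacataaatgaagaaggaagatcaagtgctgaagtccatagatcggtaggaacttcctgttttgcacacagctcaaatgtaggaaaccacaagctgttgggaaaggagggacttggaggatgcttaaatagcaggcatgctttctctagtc

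GAGGAA begins 30 bases before the start in C1qb, on the strand of the gene, and 193 bases before it in C1qc, on the other strand. It was not found in these letters of Lyz2. RefSeq promoter windows, 250 bases before to 50 after the start, were matched for 28 of the 39 members, with 33 windows in all. GAGGAA was in 19 of the 33 windows (57.6%), among them those of Trem2, Cd68, Aif1, Itgam, Laptm5, Ctss and Ptprc, and in 28.3% of all 32851 windows. The composite ETS-IRF element of PU.1 and its partner Irf8, which can overlap a GAGGAA match, was in 3 of the 33 (9.09%), in Clec7a and Cd68, and in 2.72% of all windows. A match of letters is a description and not a measured site.

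Neither transcription factor of the lineage passed. Irf8 had a spread of 0.11 between animals of a group on the log2(signal + 16) scale, which compresses dim genes. Its signal ran from 21.84 through 26.44 to 31.48 in wild type, from 26.5 through 28.88 to 40.99 in vehicle Tg2576 and from 26.4 through 31.63 to 34.73 in treated animals. All 11 vehicle Tg2576 animals lay above the wild-type median, and 7 of 11 treated animals exceeded the top of the wild-type range. Against wild type, Irf8 in vehicle Tg2576 differed by 0.15 (SE 0.06, adjusted p = 0.312) and in treated animals by 0.18 (SE 0.06, adjusted p = 0.258, the smallest of any member there). Spi1 had means of 24.2 ± 6.052, 23.86 ± 5.955 and 21.3 ± 8.93 in wild type, vehicle and treated Tg2576 (SD, n = 11 each), with differences of -0.01, -0.12 and -0.13 in the 3 comparisons.

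Homeostatic receptors and surface genes, 11 of 11 of which were tested, differed from wild type by -0.10 to 0.17 in vehicle Tg2576 (8 above 0, median 0.06) and by -0.41 to 0.06 between treated and vehicle Tg2576 (9 of 11 below 0, median -0.09). None passed in any comparison. P2ry12, the ADP receptor that steers microglial processes, ran from 168.2 through 182.7 to 220.8 in wild type, from 148.3 through 197.4 to 251 in vehicle Tg2576 and from 146.6 through 181.4 to 222 in treated animals. Cx3cr1, the receptor for neuronal fractalkine, had means of 124.7 ± 38.36, 113.3 ± 30.9 and 118.9 ± 32.02 (SD, n = 11 each). Its intervals were wide, -0.42 to 0.21 for vehicle Tg2576 against wild type, since single animals ran from 49.9 to 182.6. The levels of P2ry12 and Cx3cr1 thus overlapped throughout.

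Olfml3, a secreted matrix protein of microglia, had the largest fall in value under treatment. It ran from 58.2 through 87.17 to 161.6 in wild type, from 70.39 through 106.8 to 141.9 in vehicle Tg2576 and from 42.02 through 79.06 to 111.8 in treated animals. In treated animals, 5 of 11 lay below every vehicle Tg2576 animal and 1 lay above the vehicle median. The log2 difference was -0.41 (SE 0.13, 95% interval -0.67 to -0.14), and it did not pass (adjusted p = 0.181). Fcrls, an Fc receptor-like scavenger gene, differed by -0.28 (adjusted p = 0.38), and P2ry13, another ADP receptor, by -0.18 (adjusted p = 0.309). Gpr34, a lysophosphatidylserine receptor, differed by 0.02 and Tgfbr1, which receives the TGF-beta signal that keeps microglia in their resting state, by -0.09. A dimmer probe set of Tgfbr1 above the limit on low signals gave 0.11, as did the one below the limit.

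Of the integrins and leukocyte membrane genes, 8 of 9 were tested and none passed. In vehicle Tg2576, Itgam, the alpha chain of complement receptor CR3, differed from wild type by 0.01 and its beta chain Itgb2 by 0.11. Cd53, a tetraspanin of leukocytes, had means of 91 ± 6.32, 100.8 ± 20.25 and 86.53 ± 13.1 (SD, n = 11 each), and 5 of 11 vehicle Tg2576 animals lay above and 2 below the wild-type range. Its treated minus vehicle difference was -0.18 (adjusted p = 0.371), and that of Cd52, a small surface glycoprotein, was -0.23 (adjusted p = 0.347). Ptprc, the phosphatase CD45, lay 0.18 above wild type in vehicle Tg2576 (adjusted p = 0.469). Itgb5, an integrin chain of microglia, was the 1 member below wild type in treated animals at an unadjusted p under 0.05 (-0.16, adjusted p = 0.48), and its 4 probe sets gave -0.09 to -0.16. Aif1, the actin-binding protein also called Iba1, had means of 49.02 ± 8.397, 50.13 ± 10.78 and 45.68 ± 9.113 (SD, n = 11 each).

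Of the genes named above for the plaque-associated state, Clec7a, Cst7 and Itgax were below the limit on low signals, and Axl did not pass. Clec7a, the receptor dectin-1, had a signal of at most 16.13 in wild type, 23.72 in vehicle Tg2576 and 15.37 in treated animals, with means of 7.767, 11.19 and 10.69. Cst7, a cysteine protease inhibitor, had means of 3.544, 4.116 and 4.136, and Itgax, the integrin chain CD11c, of 10.41, 8.955 and 10.35. In a fit without the limit on low signals, none of the 3 passed (Clec7a 0.18 in vehicle Tg2576 against wild type, limma adjusted p = 0.625). No detection calls were used, so these values do not tell a low level from none. Axl, a phosphatidylserine-bridging receptor kinase, lay at 142 ± 17.04 in wild type, 128.3 ± 11.44 in vehicle Tg2576 and 134.2 ± 23.3 in treated animals (SD, n = 11 each), a first difference of -0.13 (adjusted p = 0.509). The pattern receptor gene Cd14 and Ly86, which encodes a partner of the receptor RP105, differed by 0.18 and 0.12 and did not pass.

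Over the whole set, 28 of the 36 members tested had a value above 0 in vehicle Tg2576 against wild type, where 53% of all genes tested did, and their median was 0.060 against 0.007 over all genes. In treated against vehicle Tg2576, 11 of 36 were above 0 against 45.8% of all genes, with a median of -0.064 against -0.010, which was -0.035 without treated replicate 10 (13 of 36 above 0). Both comparisons use the vehicle Tg2576 arrays, so the opposite signs are not independent. Treated against wild type, which leaves those arrays out, had 15 of 36 above 0, against 48.7% of all genes, and a median of -0.024. That median was -0.037 with median centring. It was -0.003, -0.042, -0.014 and -0.008 without wild-type replicates 3, 4, 5 and 6, and -0.039, -0.015, -0.007, 0.000 and -0.012 without treated replicates 2, 4, 6, 10 and 11. Lists of other cell types, in which no gene was called, had these values: 0 of 5 oligodendrocyte genes were above 0 in vehicle Tg2576 against wild type (median -0.19) and 5 of 5 in treated against vehicle Tg2576 (0.12), hippocampal neuron genes 2 and then 5 of 8 (-0.05 and 0.08), and astrocyte genes 2 and then 3 of 6 (-0.17 and 0.04). The part of these cells in the members' values was not tested. No member was called in treated Tg2576 against wild type (0.361% of all genes were) or in treated against vehicle Tg2576 (0.282% of all genes). At an unadjusted p under 0.05, 5 members were higher in vehicle Tg2576 than in wild type, namely Lyz2, Cd68, Irf8, Fcer1g and Tyrobp, a share of 13.9% where 11.9% of all genes passed. Counted in either direction, members at that p numbered 3 without wild-type replicate 4, with median centring and with meningeal and border macrophage scores as covariates. They numbered 7 without wild-type replicate 6 or vehicle Tg2576 replicate 3. After treatment 9 lay lower than with vehicle in Tg2576 (25%, against 11.7% of all genes). The count in either direction fell to 5, a share of 13.9%, without vehicle Tg2576 replicate 2 or 3. It did so too without treated replicate 6 or 7 and in the exact rank-sum test. Treated animals and wild type differed at that p in 5 members (13.9%, against 9.44% of all genes). None of the 36 had groups without overlap in any comparison, and of all 12760 genes only 6, 2 and 4 had.

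How large a change could have gone unseen is given by the intervals, but only on the scale of the fit. That scale compresses dim genes. For dim members such as Cd52 (mean signal 18.19 in wild type) the intervals therefore understate the change in signal that remains possible. In vehicle Tg2576 against wild type, the 95% interval of all 35 uncalled members lay within 0.5 of 0 on that scale. For 14 it lay within 0.25. In treated against vehicle Tg2576 it lay within 0.5 for 31 of 36 members, and the other 5 were Trem2, Fcer1g, Fcrls, Olfml3 and Lyz2. In treated against wild type it did so for 33 of 36. The number of 11 arrays per group limits this precision.

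From animal to animal, with group means removed, the members rose and fell together only in part. Over 630 pairs of members the median Pearson r was 0.12 (range -0.50 to 0.84), 71.7% of pairs were above 0 and 26 exceeded 0.5, whereas pairs of all genes tested had a median of 0.01 with 51.5% above 0. These correlations are a description over 33 animals whose arrays share RNA quality and scaling. The closest pairs were C1qb with C1qc (0.84), P2ry12 with Cd53 (0.69), P2ry12 with C1qa (0.66), C1qa with Axl (0.66), Aif1 with Selplg, a selectin ligand (0.65), and Selplg with Tyrobp and with Ctss (0.64 each). C1qa correlated with C1qb at only 0.16 and with C1qc at -0.00, and its closest members were P2ry12 and Axl. Laptm5, a lysosomal membrane protein of blood cells, had the highest median correlation with the other members (0.30), followed by Tyrobp (0.23). Laptm5 was read by the brightest of its 5 probe sets. In treated against vehicle Tg2576 that one gave 0.05 and the others -0.08 to -0.18. Irf8, Spi1 and Lyz2 had medians of -0.02, -0.01 and -0.02. Among genes that are not members, B2m (0.62), Odf3b (0.61), Lcp1 (0.60), Hadh (0.60) and 2610306M01Rik (0.59) followed the mean of the members most closely.

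**Figure D3:**
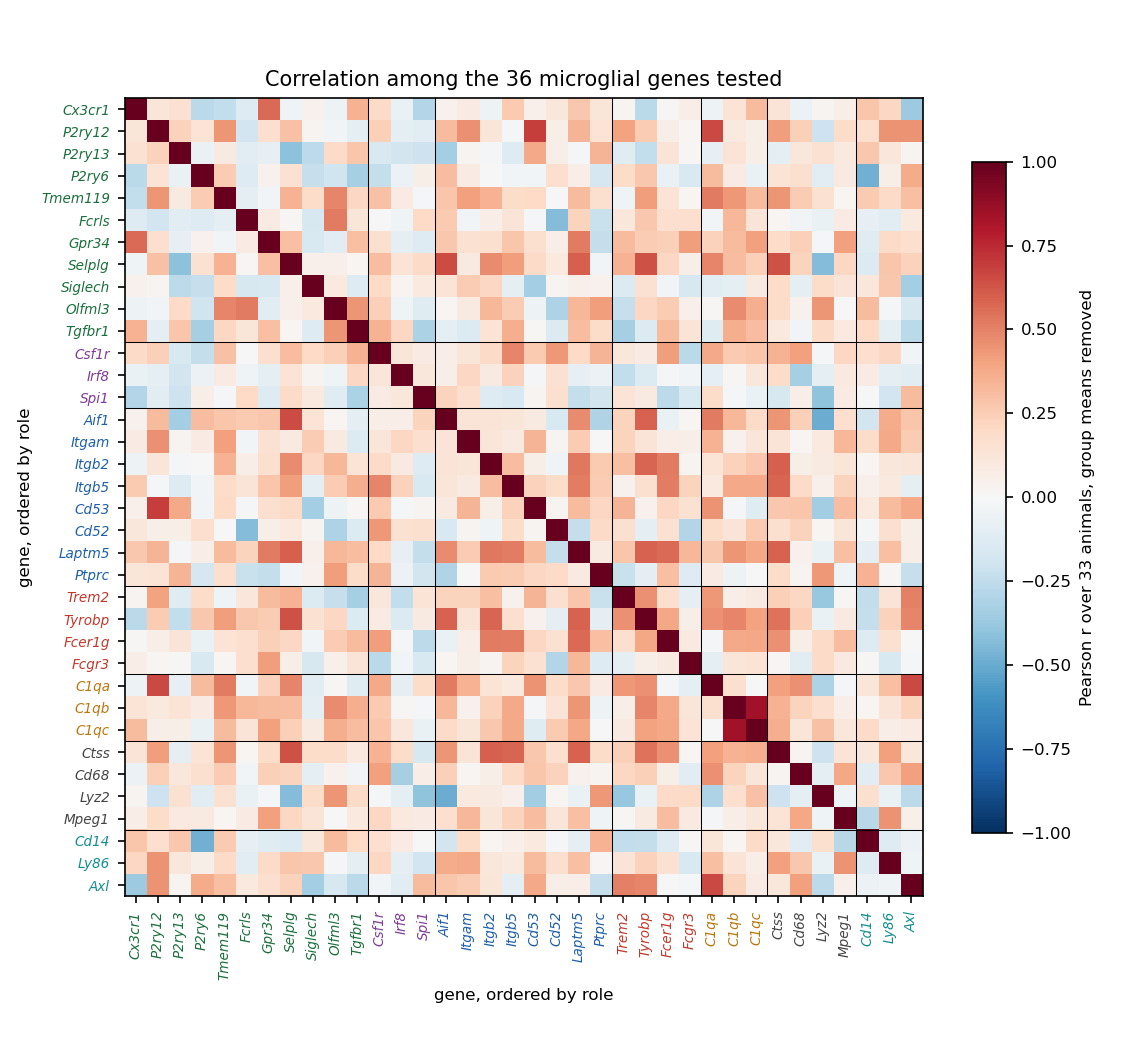
Pearson correlation of the 36 microglial genes tested over 33 animals with group means removed; both axes list the genes in order of role, colour runs from -1 (blue) to 1 (red) and black lines part the roles. C1qb and C1qc stand out at 0.84, Laptm5, Selplg, Tyrobp and Ctss share warm rows, and the row of Lyz2 reaches -0.50 with Aif1.

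From animal to animal, Lyz2 correlated with other members on both sides of 0. Its correlation was -0.50 with Aif1 and -0.43 with Selplg, and 16 of its 35 correlations with other members were above 0. As the 1 member called, it was compared, after the data were seen, with scores of 3 neighbouring tissues that a dissected hippocampus can carry. The permutation p-values below do not account for this choice of gene or for the choice of lists, so they serve as description only. The meningeal fibroblast score, the mean log2 deviation of 12 genes such as Dcn, Col1a2 and Ogn, correlated with Lyz2 at r = 0.77 and Spearman rho = 0.77 over 33 animals (permutation p = 1e-05, the smallest the permutations can give, and 2e-05, two-sided, with labels permuted within groups; adjusted over 3 scores 1.5e-05 and 6e-05). Without the 2 animals farthest from the median score r was 0.74, and within wild type, vehicle and treated Tg2576 it was 0.71, 0.86 and 0.72. A score of 5 genes of border macrophages, which live in the meninges and around vessels (Mrc1, Lyve1, Pf4, Cbr2 and F13a1), gave r = 0.71 and rho = 0.70 (permutation p = 1e-05 and 6e-05; adjusted 1.5e-05 and 9e-05), 0.63 without 2 animals, and 0.68, 0.81 and 0.66 within the groups. The choroid plexus score gave r = 0.24 and rho = 0.28 (permutation p = 0.192 and 0.129). All 5 oligodendrocyte genes tested correlated with Lyz2 below 0: Mbp at -0.58, Mag at -0.56, Cnp at -0.55, Mobp at -0.44 and Mog at -0.41. The part of oligodendrocytes in the Lyz2 values was not tested.

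The meningeal fibroblast and border macrophage scores also lay higher in vehicle Tg2576. Of the 12 meningeal genes, 10 were above 0 against wild type with a median log2 difference of 0.49, and none was called; their summed signal ran from 758.9 through 1227 to 3187 in wild type, from 883.4 through 1787 to 3155 in vehicle Tg2576 and from 674.5 through 1493 to 2350 in treated animals. All 5 border macrophage genes tested were above 0, with a median of 0.16 and none called. Their sums ran from 109 through 124.9 to 262.7, from 110.9 through 184.1 to 265.1 and from 106 through 151.1 to 249.7 in the same groups. Cd163, Ms4a7 and Clec10a, the other border macrophage markers, were below the limit on low signals. With meningeal and border macrophage scores as covariates Lyz2 differed by 0.43 (adjusted p = 0.0329), and the fit with choroid plexus and meningeal scores is given above. Both scores themselves lay higher in vehicle Tg2576, so these fits cannot give the part of these cells in the Lyz2 difference. That part was not tested. Of the 20 genes most correlated with Lyz2, led by Ogn (0.83) and Samd9l (0.78), 5 are on the meningeal list and none is a microglial member. Ogn and Igfbp2 were the 2 meningeal genes not above 0 in vehicle Tg2576 against wild type (-0.14 and -0.17).

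**Figure D4:**
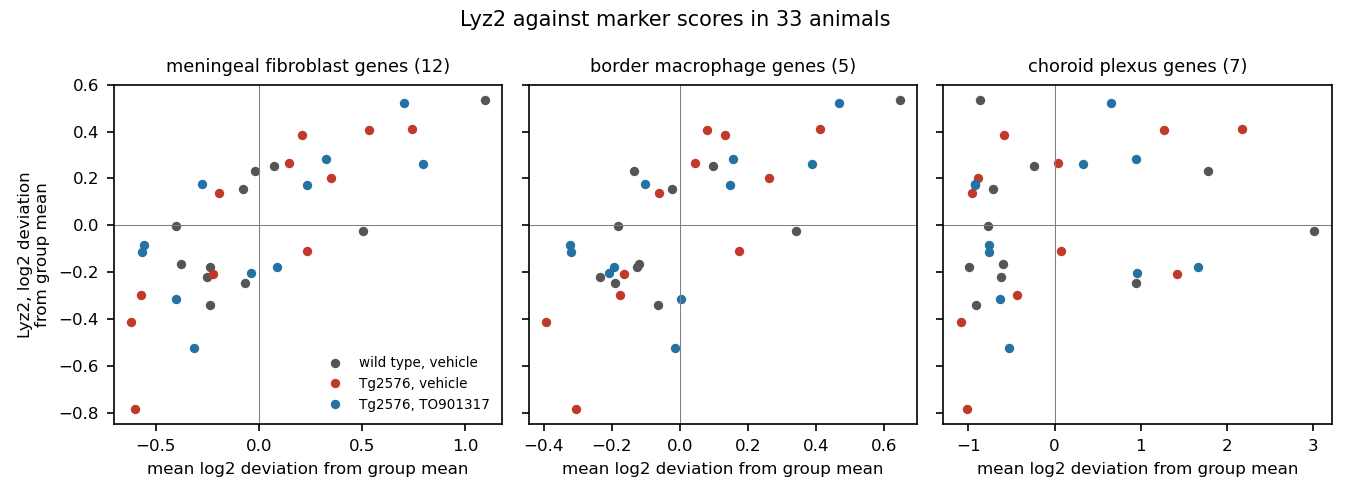
Lyz2 in each of 33 animals (y axis, log2 deviation from the group mean) against the scores of 12 meningeal fibroblast, 5 border macrophage and 7 choroid plexus genes (x axes, mean log2 deviation from the group mean), coloured by group. Points rise together in the first 2 panels (r = 0.77 and 0.71) and scatter in the third (r = 0.24).

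Several microglial genes had many genes of their own chromosome among those most correlated with them. For each of the 36 members the 20 most correlated genes that are not members were placed on the gene order of GRCm38.p6. Of the 20 for Fcer1g, 16 lay on its own chromosome and 13 within 100 genes of it, where that chromosome holds 5.83% of the genes placed. They were led by Tfb2m (0.80) and Mndal (0.79), and included Adamts4, which is 1 gene away. Fcrls had 8 on its own chromosome (2 within 100 genes), Ly86 and Olfml3 had 7 each (2 and 3), C1qc had 7, and C1qb and P2ry6 had 5 each (4 and 0). All 7 of C1qc were within 100 genes, with Zfp593 (0.72) and Pink1 (0.67) ahead, and for Olfml3 the closest was Phtf1 (0.76), 5 genes away. The median member had 1, Lyz2 had 0, and in all 90 of 720 were on the same chromosome, where the chromosomes' shares of genes would give 40. Of these 90, 16 were those of Fcer1g, and genes shared between members, such as Phtf1 and Zfp593, count once for each. The animals came from a mixed SJL × C57BL/6J background, the genotype at these loci was not analysed here, and its part in the variation of Fcer1g, C1qc or Olfml3 was not tested.

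**Figure D5:**
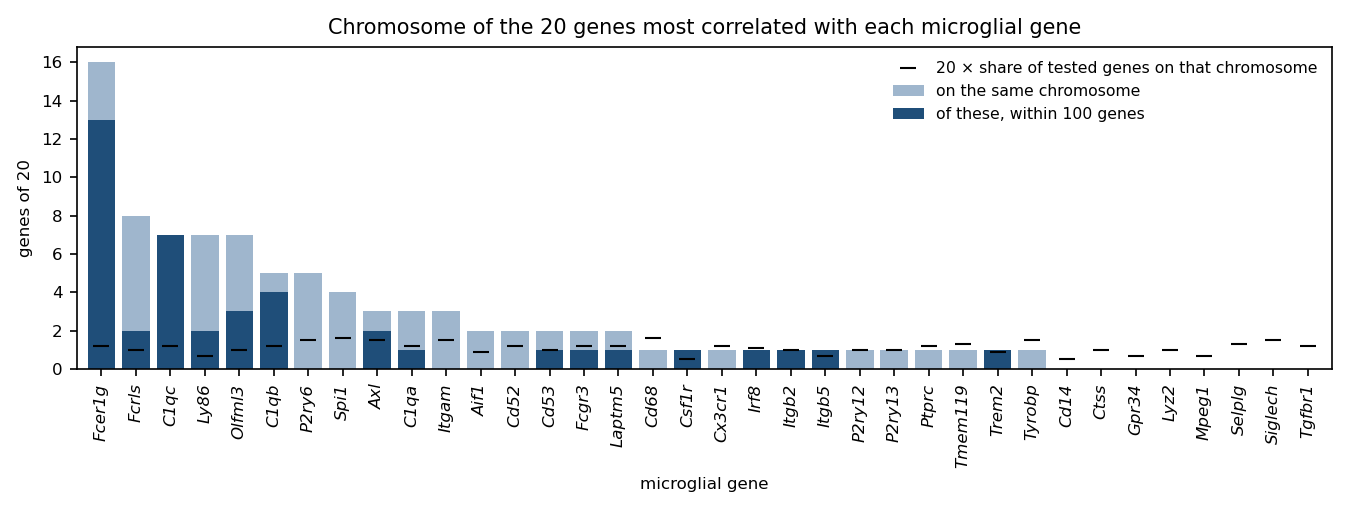
For each of the 36 microglial genes tested (x axis), how many of its 20 most correlated genes lie on its own chromosome (light bars) and within 100 genes (dark bars), over 33 animals with group means removed. Dashes give 20 times that chromosome's share of the genes tested; Fcer1g stands highest with 16, of which 13 are within 100 genes.

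Averaged over the 36 members, an animal's mean log2 deviation was -0.03 ± 0.09 in wild type (range -0.21 to 0.09), 0.05 ± 0.08 in vehicle Tg2576 (-0.04 to 0.16) and -0.02 ± 0.09 in treated Tg2576 (-0.22 to 0.08; SD, n = 11 each). Without Lyz2 the means were -0.02, 0.04 and -0.02. Wild-type replicate 4 and treated replicate 10 were the lowest of their groups, and both were also the lowest for the homeostatic, integrin and pattern receptor groups. The 3 ranges overlapped, and single animals differed more than group means.

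Other genes of the pathway, from a list of 43 with 34 tested, did not pass either: none was called in any comparison, and 14 of 34 were above 0 in vehicle Tg2576 against wild type (median -0.01). They include the lysosomal proteases Ctsb (-0.01), Ctsd (0.02) and Ctsz (0.09), the lectin gene Lgals3 (0.29, adjusted p = 0.519) and the growth factor gene Igf1 (0.20, adjusted p = 0.263). Apoe, a lipid carrier and LXR target, differed by 0.25 in treated against vehicle Tg2576 (limma adjusted p = 0.134). Of the neuronal and glial ligands of microglial receptors, 8 of 9 were tested and none passed. The value for Cd200, which restrains microglia, was 0.36 in vehicle Tg2576 against wild type (adjusted p = 0.0761), and those of Cx3cl1, Csf1 and Il34 were -0.07, -0.14 and 0.08. Of 15 inflammatory mediators 5 were tested, and Il1b, Il18, Ptgs2, Nfkbia and Tlr2 differed by -0.22 to 0.16 with no call.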

How the data were processed

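Total RNA of the right hippocampus was biotin-labelled and hybridised to MOE430 2.0 arrays, 1 per animal, and groups were taken from the labels. What the authors deposited is linear array intensity from MAS5, per the submitters' processing notes, with no version or settings given in the sources used here. Its 45101 probe sets include 34945 that name 1 gene in the platform annotation, which can be old, and 64 controls. From these values log2(signal + 16) was taken, so differences of dim genes are understated. The dimmest 40 percent of probe sets by mean log2 value (signal limit 13.3) were left out, and the brightest probe set stood for each gene. The fit, by limma 3.58.1 under R 4.3.3, used all 33 arrays and a mean for each group (eBayes with trend and robust), with Benjamini-Hochberg adjustment over 12760 genes and a limit of 0.05. Two-sided tests were used throughout. Every member may be named, as the rule for named genes states. Members and lists were chosen with earlier results of these data known. The procedure was tested on simulated data for vehicle Tg2576 against wild type, 12760 genes with 200 changed in each of 5 draws. It called 43.6% of genes changed by 0.25, 87.4% by 0.5 and 100% by 1. Noise was drawn independently for each gene, and the real data had only 30 genes called in that comparison. These shares therefore do not give the power to call a member that changed by the same size. Alternatives covered the pseudocount, filter, scaling, probe set rule, variance model, covariates, arrays left out, a replicate block and an exact rank-sum test.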

Additional observations from a re-analysis of the deposited data

How the results depend on the processing

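Across 1718 alternative values per comparison, no member was newly called and none reversed while called; signs of uncalled values changed in 47, 33 and 37 of them, in the comparisons of vehicle Tg2576 with wild type (first), of treated with vehicle Tg2576 (second) and of treated Tg2576 with wild type (last). The members called numbered 0 in place of 1 in the first comparison with choroid plexus and meningeal scores as covariates, without vehicle Tg2576 replicates 3 and 4 and in the exact rank-sum test, and 0 to 1 with each array left out. In the other comparisons it was 0 in every fit. Under quantile normalization 27, 11 and 14 members lay above 0, and under median centring 28, 11 and 14. Lyz2 ran from 0.36 to 0.81 over the 15 other settings, mostly with the pseudocount (64 and 1), and kept its call in 12. Genes called over the whole array moved more. From 30 in the first comparison they went to 51 with the replicate block, 59 with the Gapdh ratio as a covariate and 14 in the rank-sum test, and to 23 to 57 with arrays left out (57 without vehicle Tg2576 replicate 1, 51 without wild-type replicate 5). From 36 in the second they went to 22 without the filter, 10 with median centring and 65 with the Gapdh ratio, and to 20 to 43 (22 and 20 without treated replicates 1 and 6). From 46 in the last they went to 26 without the filter, 20 with median centring, 29 with plain eBayes and 26 in the rank-sum test, and to 22 to 50 (30, 28, 28, 27, 24 and 22 without wild-type replicates 11, 3, 6, 10, 1 and 9; 28, 28, 27, 25, 24 and 23 without treated replicates 4, 8, 9, 2, 5 and 6). The split of calls into higher and lower went from 16 and 14 to 8 and 17, from 15 and 21 to 8 and 2, and from 18 and 28 to 11 and 9 with median centring. The cause of these shifts was not tested. Same-numbered arrays deviated together at r of -0.10 to 0.12 (median 0.03), 0.04 to 0.19 (median 0.10) and -0.02 to 0.22 (median 0.08). These values were small but all above 0 in the second comparison, and what lies behind them was not tested. The main fit did not pair animals by number. With the replicate block 1, 0 and 0 members were called and Lyz2 had a limma adjusted p of 0.0129. Among the members tested, standard errors ran from 0.05 to 0.17, the latter for Trem2.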
